A study of Mus musculus with 5 samples.

Results

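The genes described here make, activate, store and burn fatty acids. They were chosen by symbol: 35 genes, of 52459 rows in the deposited table, whose symbol equals a name on a list of 16 synthesis, 4 activation, 8 storage and 7 oxidation genes. All 35 symbols were found, and 33 had a mean of at least 1 FPKM (fragments per kilobase and per unit of library depth) and were tested. The cells come from 1 mouse pancreatic cancer line, HY15549, of C57BL/6 background, and both groups carry a reporter of autophagy flux, GFP-LC3-RFP. Cells grew as organoids in Matrigel and were sorted as single cells by their GFP to RFP ratio into autophagy-high (AThi, 2 libraries) and autophagy-low (ATlo, 3 libraries) fractions, with no drug or genetic contrast given between them. The series calls its replicates biological but does not name separate cultures. The p-values below therefore describe spread among 5 libraries of a single line, part of which may be technical.

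As background, cells build fatty acids from cytosolic acetyl-CoA. ATP citrate lyase supplies it, acetyl-CoA carboxylase turns it into malonyl-CoA, and fatty acid synthase makes palmitate, which elongases lengthen and desaturases make unsaturated. Acyl-CoA synthetases activate free fatty acids, which then enter triglyceride in lipid droplets or pass through the carnitine shuttle into mitochondria for beta-oxidation. The transcription factor SREBP-1, the product of Srebf1, drives many of the synthesis genes, and autophagy of lipid droplets (lipophagy) is a known route by which stored fat reaches the lysosome.

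Implied depths were 27.6 to 44.9 M reads a library, read from the steps of low FPKM values, at which 3 reads on a transcript of 1 kilobase correspond to 0.067 to 0.109 FPKM. The keratin and cadherin genes of an epithelial cell were abundant (Krt19 at 1395 to 1842 FPKM, Cdh1 at 316 to 392.2 FPKM), while Epcam was at 1.51 to 3.57 FPKM and Cldn4 at no more than 0.15 FPKM. Of 8 epithelial markers 7 were tested, and 0 rose and 2 fell in AThi, where 29.4% of all tested genes fell. Krt7 was at 71.2 and 83.5 FPKM in AThi against 125, 131 and 113 FPKM in ATlo (limma adjusted p 0.0015). Cldn7 fell with a limma adjusted p of 0.0419, a call lost in 8 of the alternative fits described below. Summed markers of fibroblasts (8 genes) and endothelial cells (5 genes) were at or below 0.18 and 0.08 FPKM in every library. Of 9 leukocyte markers, Adgre1 was at 0 and Ptprc at no more than 0.05 FPKM. Their sum was 9.02 and 14.98 FPKM in AThi against 4.69, 4.47 and 4.90 FPKM in ATlo, nearly all of it Cd68, which encodes a lysosomal membrane protein. Of 7 adipocyte markers, Lep, Plin1 and Cfd were at 0 and Adipoq was at no more than 0.05 FPKM. The sum of the 7 was 26.8 and 27.5 FPKM in AThi against 24.0, 19.6 and 17.7 FPKM in ATlo, and nearly all of it came from Cidec and Lipe, which are also on the droplet and lipolysis list below.

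The comparison of AThi with ATlo asks which genes differ between cells of high and low autophagy flux. Of 14 tested synthesis genes 8 fell in AThi and 0 rose, and of 4 acyl-CoA synthetase genes 2 fell and 0 rose. Of 8 storage genes 3 rose and 0 fell, and of 7 mitochondrial oxidation genes 1 rose and 2 fell. The largest change was a fall of the elongase gene Elovl6 to 44.2% of its ATlo mean, and the largest rise was that of the lipid droplet coat gene Plin3, to 131.6%. In all, 16 of the 33 tested genes passed (limma, Benjamini-Hochberg adjusted p under 0.05 over 11397 genes), 12 lower and 4 higher. Over all tested genes 51.6% passed, 29.4% lower and 22.2% higher in AThi, so the total of 16 is near the background. The storage and oxidation counts are of few genes and lie near these shares, so they are not read as results about those roles. With 2 of only 4 genes called, near the 51.6% of all tested genes, activation is not read as a result about its role either. Without ATlo replicate 2, 1 of the 8 storage genes rose. The split by direction over all genes depends on scaling: 3011 were higher and 2838 lower after quantile normalization, and 3138 and 3186 after rescaling to TPM. Library values of the groups did not overlap in 26 of the 33 genes, 20 below and 6 above, against 70.3% of all tested genes, 38.4% below and 31.9% above. The median log2 fold change (on log2(FPKM + 0.5), AThi minus ATlo) was -0.33 for synthesis, -0.32 for activation, 0.16 for storage and -0.08 for oxidation, and -0.03 over all tested genes. In bulk RNA, fewer cells that express a gene and less of its RNA per cell cannot be told apart.

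**Figure D1:**
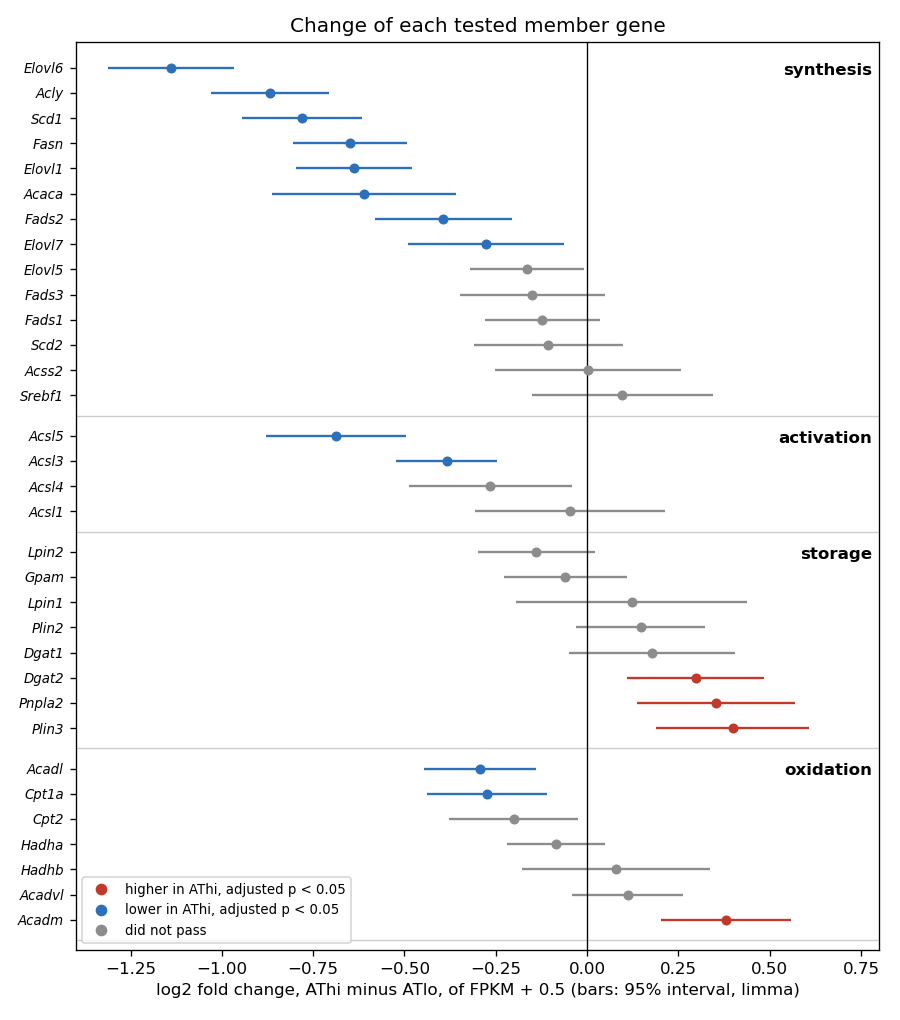
Log2 fold change (AThi minus ATlo, of FPKM + 0.5; horizontal axis) of the 33 tested genes by role, with 95% intervals from limma. Blue points passed and are lower in AThi, red points passed and are higher, grey points did not pass; the synthesis points run from -1.14 for Elovl6 to 0.10 for Srebf1, and the 3 red storage points lie between 0.30 and 0.40.

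Other gene programmes separated the same libraries. All 16 genes of a mitosis list fell, and their sum was 38.6 and 41.9 FPKM in AThi against 383, 448 and 527 FPKM in ATlo. The sum of 19 immediate-early genes, which respond to growth signals and cell handling, was 4433 and 6924 FPKM in AThi against 2134, 2643 and 1665 FPKM in ATlo, and 15 of the 19 rose. Genes of the mitochondrial genome held 10.04% and 7.51% of all FPKM in AThi and 5.53% to 5.98% in ATlo (for this share and for both sums, exact two-sided permutation p = 0.2, the smallest that 2 against 3 libraries allow). The part of these programmes in the lipid gene differences was not tested.

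All 3 tested enzyme genes on the route from citrate to palmitate fell. Acly, the gene of ATP citrate lyase, was at 53.9 and 57.7 FPKM in AThi replicates 1 and 2, and at 106, 102 and 98.4 FPKM in ATlo replicates 1 to 3. Its groups were far apart, with a mean of 55.8 ± 2.71 FPKM for AThi (SD, n = 2) against 102 ± 3.98 FPKM for ATlo (SD, n = 3). The log2 difference was -0.87 ± 0.07 (SE) with an adjusted p of 0.00014 in limma. Fasn, which encodes fatty acid synthase, stood at 44.8 and 48.4 FPKM in AThi against 75.9, 72.1 and 72.0 FPKM in ATlo. Both AThi values lay below every ATlo value, and the log2 fold change was -0.65 ± 0.07 (SE) with a limma adjusted p of 0.000355. Acaca, the gene of the cytosolic acetyl-CoA carboxylase that commits acetyl-CoA to synthesis, had a low level of 1.64 and 1.37 FPKM in AThi against 2.51, 2.63 and 2.53 FPKM in ATlo. It changed by -0.61 ± 0.11 (SE) with a limma adjusted p of 0.0032. Its transcripts share 30.4% of their 50-base stretches with other annotated transcripts, chiefly Gm5182, so its level is uncertain. The related Acacb, whose product acts at the mitochondrial surface and restrains oxidation, was at 0.05 to 0.15 FPKM, about 19 to 65 reads a library, and stayed below the filter.

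Acss2, the acetate-using source of cytosolic acetyl-CoA, did not pass. Its libraries ran 11.1 to 12.3 FPKM in AThi and 10.5 to 13.3 FPKM in ATlo, overlapping, with a log2 fold change of 0.00 ± 0.11 (SE), a 95% interval of -0.25 to 0.26 and a limma adjusted p of 0.987. Its exons overlap those of Gss and Ggt7 on the opposite strand by 395 and 197 bases. Gss was at 22.2 and 23.3 FPKM in AThi against 32.6, 30.7 and 27.2 FPKM in ATlo. Its log2 fold change was -0.40 with a limma adjusted p of 0.0079, and its part in the Acss2 value was not tested. Within a library, Acly stood at 4.87 and 4.69 times Acss2 in AThi and at 8.01, 8.97 and 9.40 times in ATlo. This ratio and the others below were chosen after the values were seen and are given as descriptions.

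Desaturases introduce double bonds, and the closely related Scd1 and Scd2, which both encode stearoyl-CoA desaturases, differed in their values. Scd2 was the most abundant of the 35 genes, above 99.6% of tested genes, at 536 and 601 FPKM in AThi replicates 1 and 2, and at 605, 618 and 609.6 FPKM in ATlo replicates 1 to 3. Its AThi values lay just under the ATlo values, with a log2 fold change of -0.11 ± 0.09 (SE), a 95% interval of -0.31 to 0.10 and a limma adjusted p of 0.334. Scd1 was at 104 and 108 FPKM in AThi against 192, 176 and 179 FPKM in ATlo, 58.1% of the ATlo mean. It fell by 0.78 on the log2 scale, with an SE of 0.07 and a limma adjusted p of 0.000227. The Scd1 to Scd2 ratio was 0.194 and 0.179 in AThi and 0.317, 0.285 and 0.293 in ATlo. Scd2 made up 46.6% and 48.4% of the summed FPKM of the synthesis genes in AThi and 40.1% to 42.6% in ATlo. The difference between the 2 genes was not tested. The 2 genes lie 87591 bases apart on chromosome 19 of GRCm38 (Scd2 at 44293674 to 44306864, plus strand, and Scd1 at 44394455 to 44407879, minus strand). About 4% of the 50-base stretches of each (4.56% and 3.97% for Scd1 and Scd2) also occur in transcripts of other genes, chiefly within the Scd family.

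The fatty acid desaturase genes Fads1, Fads2 and Fads3 are neighbours on the same chromosome. Fads2, the delta-6 desaturase that opens the synthesis of long polyunsaturated fatty acids, fell from 156 ± 11.3 FPKM (SD, n = 3) to 119 ± 2.52 FPKM (SD, n = 2), by a log2 fold change of -0.39 ± 0.08 (SE) and with a limma adjusted p of 0.0058. Fads1, the delta-5 desaturase, was at 71.3 and 68.9 FPKM in AThi against 79.8, 72.9 and 76.5 FPKM in ATlo. Fads3 was at 84.7 and 93.7 FPKM in AThi against 107, 94.9 and 94.98 FPKM in ATlo. In both, the AThi values lay below all ATlo values, yet neither passed (limma adjusted p of 0.161 and 0.175), and their intervals were -0.28 to 0.03 and -0.35 to 0.05.

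Elongases add carbon pairs to acyl-CoA, and each prefers its own substrates. Elovl6, which extends palmitate to stearate, was at 10.2 and 9.14 FPKM in AThi replicates 1 and 2, and at 22.6, 22.1 and 20.9 FPKM in ATlo replicates 1 to 3. Its log2 fold change, the largest of the 33, was -1.14 ± 0.07 (SE), lower than that of all but 3.41% of tested genes, with a limma adjusted p of 7.03e-05. Elovl1, which makes very long saturated chains, was at 19.1 and 18.9 FPKM in AThi against 31.7, 28.5 and 29.4 FPKM in ATlo. It changed by -0.64 ± 0.07 (SE) with a limma adjusted p of 0.000422. Its exons overlap those of Cdc20, a mitotic gene on the opposite strand, by 53 bases. Cdc20 was at 4.33 and 4.75 FPKM in AThi against 41.7, 48.4 and 54.2 FPKM in ATlo, and its part in the Elovl1 value was not tested. Elovl5, which lengthens polyunsaturated chains, was at 38.0 and 35.2 FPKM in AThi against 41.3, 39.5 and 42.2 FPKM in ATlo and did not pass, with a log2 fold change of -0.16 ± 0.07 (SE) and a limma adjusted p of 0.0743. Within a library the Elovl6 to Elovl5 ratio was 0.268 and 0.260 in AThi and 0.495 to 0.559 in ATlo. Elovl7 ran 10.5 to 12.8 FPKM in AThi and 13.8 to 14.5 FPKM in ATlo, and its fall (-0.28 ± 0.09 (SE), limma adjusted p 0.0374) was lost in 8 of 14 alternative fits, all 3 other scalings among them.

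**Figure D2:**
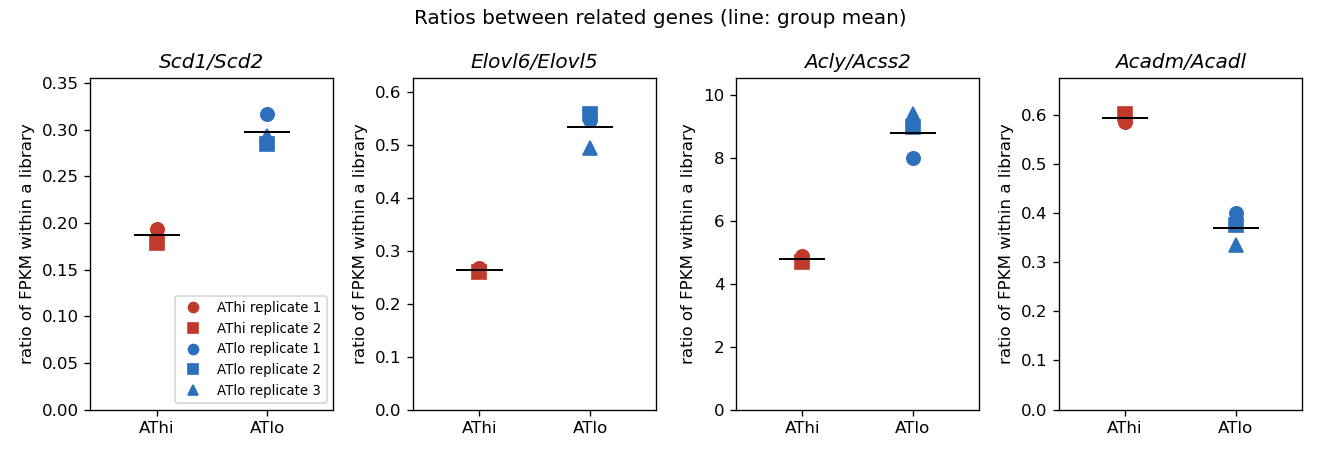
FPKM ratio of related genes within each library (vertical axis, from 0) for AThi (red) and ATlo (blue), with symbols for replicate numbers and a line at each group's mean. The Scd1/Scd2, Elovl6/Elovl5 and Acly/Acss2 ratios are lower in both AThi libraries and the Acadm/Acadl ratio is higher (0.585 and 0.602 against 0.335 to 0.401).

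Neither regulator of synthesis among the 35 genes gave a call. Srebf1 was at 44.5 and 56.8 FPKM in AThi replicates 1 and 2, and at 48.9, 46.5 and 45.6 FPKM in ATlo replicates 1 to 3. The first AThi library lay below the ATlo range and the second above it, and the log2 fold change was 0.10 ± 0.10 (SE) with a limma adjusted p of 0.47. With AThi replicate 1 left out it was 0.27 (limma adjusted p 0.0406), and without AThi replicate 2 it was -0.08. The same AThi replicate 2 had the higher immediate-early sum, and its part in the Srebf1 value was not tested. Thrsp, a lipogenic gene of liver and fat, was at 0.01 FPKM in AThi replicate 2, about 1 read, and at 0 in the other libraries. Srebf1 overlaps Rai1, on the opposite strand, by 109 exonic bases, and Rai1 was at 12.2 and 13.2 FPKM in AThi against 8.37 to 8.66 FPKM in ATlo. RNA levels do not measure the cleavage by which SREBP-1 is activated.

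Promoter windows of 300 bases (250 before and 50 after the RefSeq start on GRCm38.p6) were searched for 4 motifs on both strands, and the windows of 4 genes are shown because the genes moved in this comparison. Elovl6 had the largest fall, Fasn and Acsl5 are a synthesis and an activation gene that fell, and Plin3 had the largest rise. Their windows are chr3:129532136-129532435, plus strand; chr11:120824498-120824797, minus strand; chr19:55253119-55253418, plus strand; and chr17:56290462-56290761, minus strand. Capitals mark CCAAT or its reverse complement ATTGG, the core bound by NF-Y, a known partner of SREBP.
Elovl6: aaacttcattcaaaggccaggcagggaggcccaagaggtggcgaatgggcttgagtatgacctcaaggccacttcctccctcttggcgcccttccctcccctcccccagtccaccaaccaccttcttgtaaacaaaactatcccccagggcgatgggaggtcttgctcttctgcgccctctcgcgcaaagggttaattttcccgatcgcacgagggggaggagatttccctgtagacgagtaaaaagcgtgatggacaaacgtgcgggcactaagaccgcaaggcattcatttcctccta
Fasn: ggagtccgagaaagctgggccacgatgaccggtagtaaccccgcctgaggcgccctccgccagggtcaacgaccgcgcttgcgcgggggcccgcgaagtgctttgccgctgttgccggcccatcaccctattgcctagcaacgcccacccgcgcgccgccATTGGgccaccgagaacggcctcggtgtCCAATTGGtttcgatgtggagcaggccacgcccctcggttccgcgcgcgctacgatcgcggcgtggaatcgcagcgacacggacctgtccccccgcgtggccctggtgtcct
Acsl5: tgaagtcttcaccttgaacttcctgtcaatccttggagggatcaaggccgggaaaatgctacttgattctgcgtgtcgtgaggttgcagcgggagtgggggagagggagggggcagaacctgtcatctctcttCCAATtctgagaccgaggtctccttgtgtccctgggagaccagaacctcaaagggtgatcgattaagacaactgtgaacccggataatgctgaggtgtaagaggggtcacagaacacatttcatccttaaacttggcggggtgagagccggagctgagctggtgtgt
Plin3: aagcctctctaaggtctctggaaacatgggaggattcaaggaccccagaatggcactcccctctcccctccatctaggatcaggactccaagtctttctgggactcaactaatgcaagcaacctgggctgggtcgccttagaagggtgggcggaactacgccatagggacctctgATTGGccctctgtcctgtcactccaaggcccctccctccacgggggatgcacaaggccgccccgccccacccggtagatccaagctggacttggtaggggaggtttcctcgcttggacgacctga
In Fasn, CCAAT occurred 3 times, starting 90, 62 and 59 bases before the start site, the last 2 overlapping on opposite strands. Acsl5 and Plin3 each had 1, starting 117 and 75 bases before the start, and the Elovl6 window held none of the 4 motifs.

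RefSeq windows were found for 30 of the 35 genes (37 windows), all but Scd1, Scd2, Fads1, Dgat1 and Dgat2. CCAAT was in at least 1 window of 9 of 13 synthesis, 3 of 4 activation, 4 of 6 storage and 1 of 7 oxidation genes. Counted by window, it was in 18 of 37 against 37.4% of all 32851 windows. The 32851 windows were taken whether or not their genes are expressed here, and no share by gene was computed for them. CCAAT was present in 6 of the 11 genes with a window that fell, 1 of 3 that rose and 8 of 14 that did not pass. The Sp1-type motif GGGCGG was in 23 of 37 windows against 35.7% of all, the E-box CACGTG in 3 (Elovl5, Lpin2 and Plin2) against 7.2%, and the sterol response element TCACNCCAC in 1 (Acsl1) against 1.2%. A match is a run of letters and not a measured site, and a missing one says only that these letters are not in the window.

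Acyl-CoA synthetases couple fatty acids to coenzyme A, the step before either storage or oxidation. Acsl5, placed on mitochondria and the endoplasmic reticulum, was the most abundant of the 4, at 144 and 133 FPKM in AThi replicates 1 and 2, and at 239, 216 and 214 FPKM in ATlo replicates 1 to 3. It fell to 62.0% of the ATlo mean, by a log2 fold change of -0.69 ± 0.08 (SE) with a limma adjusted p of 0.000668. Acsl3, found on the endoplasmic reticulum and on nascent lipid droplets, was at 36.5 and 34.8 FPKM in AThi against 47.2, 46.0 and 46.9 FPKM in ATlo. Its fall was smaller, at -0.38 ± 0.06 (SE), with a limma adjusted p of 0.0018. Exons of Acsl5 overlap Zdhhc6 on the opposite strand by 404 bases, and those of Acsl3 overlap Utp14b on the same strand by 244 bases. Zdhhc6 was at 14.2 and 12.3 FPKM in AThi against 17.8, 14.9 and 15.5 FPKM in ATlo. Utp14b was at 1.90 and 2.69 FPKM in AThi against 3.12, 4.14 and 4.20 FPKM in ATlo. Their parts in the Acsl5 and Acsl3 values were not tested. Acsl4, which prefers arachidonate and is known for its role in ferroptosis, ran 14.7 to 16.7 FPKM in AThi and 17.7 to 21.0 FPKM in ATlo without overlap, and at a limma adjusted p of 0.0503 it did not pass. It passed in 3 of 14 alternative fits, with adjusted p-values from 0.0429. Acsl1 was low, at 1.67 to 1.91 FPKM in AThi and 1.77 to 1.96 FPKM in ATlo, with overlapping groups and a limma adjusted p of 0.741. The summed FPKM of the 4 genes was 199 and 184 FPKM in AThi against 306, 283 and 283 FPKM in ATlo, and Acsl5 made up most of it.

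**Figure D3:**
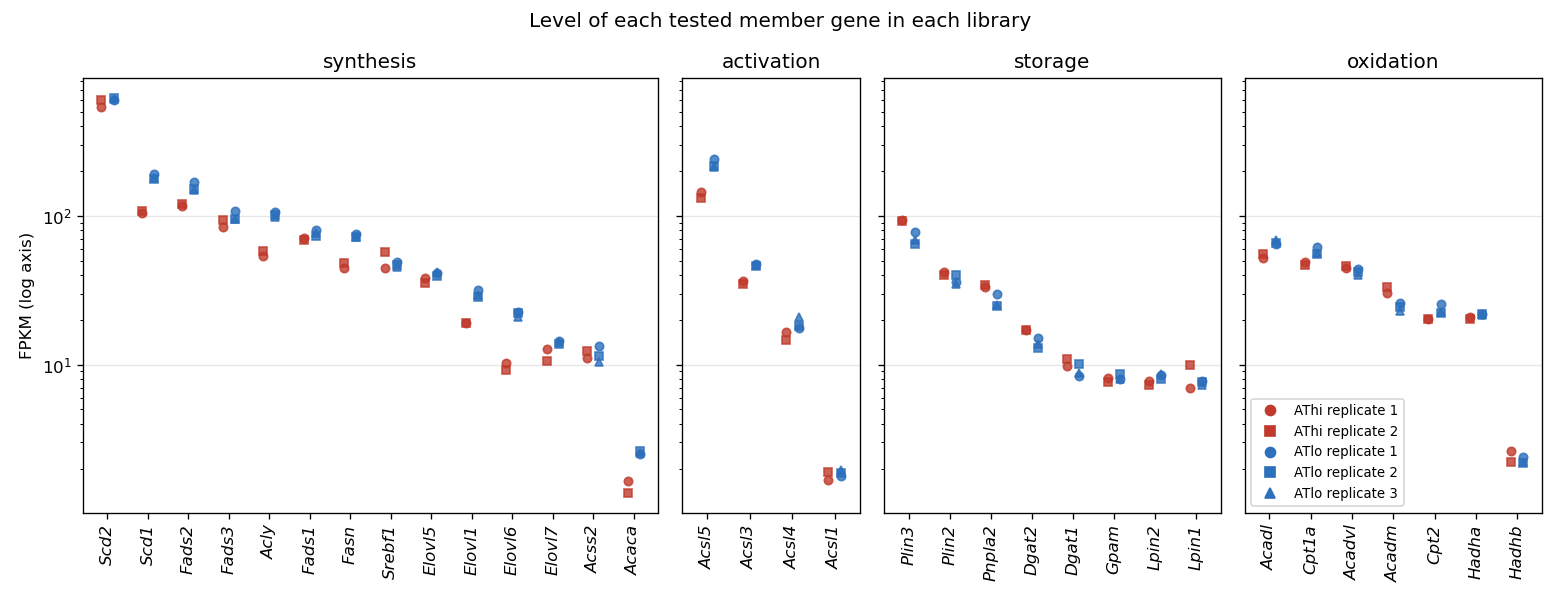
FPKM (log axis) of the 33 tested genes in every library, by role and ordered by mean level, with AThi in red and ATlo in blue and symbols for replicate numbers. Scd2 stands highest at 536 to 618 FPKM, Acsl5 leads the activation genes at 133 to 239 FPKM, and Plin3 leads the storage genes at 65.1 to 93.2 FPKM.

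Among genes of triglyceride storage, 1 droplet coat gene, 1 lipase gene and 1 gene of the last synthetic step rose, and the genes of the earlier steps did not pass. Plin3, a droplet coat protein that is also found in the cytosol, was at 93.2 and 92.7 FPKM in AThi replicates 1 and 2, and at 78.4, 65.1 and 68.4 FPKM in ATlo replicates 1 to 3. Its AThi values were close together and above all ATlo values, with a log2 fold change of 0.40 ± 0.09 (SE) and a limma adjusted p of 0.0089. Pnpla2, the gene of adipose triglyceride lipase, which starts the breakdown of stored fat, was at 33.1 and 34.4 FPKM in AThi against 29.7, 24.6 and 25.1 FPKM in ATlo, a change of 0.35 ± 0.09 (SE) with a limma adjusted p of 0.0163. Dgat2, one of 2 enzymes that complete triglyceride, was at 17.2 and 17.2 FPKM in AThi against 15.2, 12.9 and 13.7 FPKM in ATlo, a change of 0.30 ± 0.08 (SE) with a limma adjusted p of 0.0182. The rise of Plin3 held with each library left out in turn. Those of Pnpla2 and Dgat2 were lost without AThi replicate 1, without AThi replicate 2 and without ATlo replicate 2, where their limma adjusted p-values reached 0.0875 and 0.0773. Between libraries of the same replicate number, the log2 differences of Plin3 were 0.25 and 0.51, and those of Pnpla2 0.16 and 0.48.

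Plin2, the coat protein usually used to mark lipid droplets, was at 41.7 and 40.0 FPKM in AThi against 35.8, 39.8 and 35.01 FPKM in ATlo. The AThi values lay above all ATlo values, by as little as 0.15 FPKM, and the log2 fold change of 0.15 ± 0.07 (SE) did not pass (limma adjusted p 0.14). It passed after quantile normalization alone, with an adjusted p of 0.0289. Dgat1, the other triglyceride-completing enzyme, ran 9.71 to 10.9 FPKM in AThi and 8.36 to 10.1 FPKM in ATlo and overlapped (limma adjusted p 0.161). Gpam, the mitochondrial acyltransferase of the first step, and the lipins Lpin1 and Lpin2, which make diacylglycerol, lay between 6.98 and 9.86 FPKM in all libraries, and none passed (limma adjusted p of 0.51, 0.473 and 0.128). Lpin1 was at 6.98 FPKM in AThi replicate 1 and 9.86 FPKM in AThi replicate 2, on either side of the ATlo range of 7.28 to 7.81 FPKM. Leaving out AThi replicate 1 gave a log2 fold change of 0.36 with a limma adjusted p of 0.0232.

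Of the 7 mitochondrial oxidation genes among the 35, 1 rose and 2 fell, each by less than 0.4 on the log2 scale. Their median of -0.08 was 0.03 after quantile normalization, where 2 rose and 1 fell. Acadm, the medium-chain acyl-CoA dehydrogenase, was at 30.5 and 33.4 FPKM in AThi replicates 1 and 2, and at 25.7, 24.5 and 22.9 FPKM in ATlo replicates 1 to 3. It rose by 0.38 ± 0.08 (SE) with a limma adjusted p of 0.0054, and the call held with each library left out. Acadl, the long-chain dehydrogenase, went the other way, at 52.1 and 55.4 FPKM in AThi against 64.2, 65.3 and 68.5 FPKM in ATlo. Its log2 fold change was -0.29 ± 0.06 (SE) with a limma adjusted p of 0.0085, lost without AThi replicate 1 (0.0508). The Acadm to Acadl ratio was thus 0.585 and 0.602 in AThi and 0.401, 0.375 and 0.335 in ATlo, with no overlap. Acadvl, the very-long-chain dehydrogenase, was at 44.7 and 46.1 FPKM in AThi against 43.9, 42.0 and 40.2 FPKM in ATlo, with a limma adjusted p of 0.188. It passed after quantile normalization alone (adjusted p 0.0201). Dvl2, on the opposite strand, overlaps its exons by 1151 bases (26.9% of its 50-base stretches), and reads of the 2 genes can be told apart only if counting used strand.

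Cpt1a, the carnitine palmitoyltransferase that admits fatty acids to mitochondria and is blocked by malonyl-CoA, was at 48.9 and 46.8 FPKM in AThi against 61.7, 55.8 and 56.6 FPKM in ATlo. The AThi values lay below all ATlo values, with a log2 fold change of -0.27 ± 0.07 (SE) and a limma adjusted p of 0.0149. That call was lost without AThi replicate 2 and after quantile normalization, where the adjusted p rose as far as 0.0801. Cpt2, its partner on the inner membrane, was at 20.1 and 20.4 FPKM in AThi against 25.4, 22.4 and 22.5 FPKM in ATlo, with the same direction and a limma adjusted p of 0.0582. Hadha, the alpha subunit of the trifunctional protein, was at 20.7 and 20.3 FPKM in AThi against 21.9, 22.0 and 21.5 FPKM in ATlo, with a limma adjusted p of 0.247 and an interval of -0.22 to 0.05. Hadhb, the beta subunit, was at 2.20 to 2.64 FPKM in AThi and 2.18 to 2.39 FPKM in ATlo, with overlapping groups and a limma adjusted p of 0.564.

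Summed levels by role are given as descriptions, and abundant genes weigh most in them. The 16 synthesis genes summed to 1149 and 1242 FPKM in AThi against 1510.2, 1452 and 1444 FPKM in ATlo, or 81.4% of the ATlo mean in AThi. The 8 storage genes summed to 218 and 220.0 FPKM in AThi against 192, 177 and 175 FPKM in ATlo, or 120.9%. Most of that difference came from Plin3, with means of 93.0 FPKM in AThi and 70.6 FPKM in ATlo. Of the 8 genes, 6 had a positive and 2 a negative log2 fold change. The 7 oxidation genes summed to 219.7 and 225 FPKM in AThi against 245, 234 and 234 FPKM in ATlo, or 93.4%. None of these sums overlapped between groups, and neither did the values of 70.3% of all tested genes. No p-value is given for the sums because the genes were chosen with results known.

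The wider lipid network was read from lists of related genes. Over all tested genes 22.2% were higher and 29.4% lower in AThi, and the counts of each list are to be read beside these shares. In the list of acetyl-CoA and NADPH supply and elongation partners, 8 of 12 tested genes fell and 0 rose. Mecr and Acss1, both of mitochondrial enzymes, are among those that fell, so the count does not describe cytosolic supply alone. The list's median log2 fold change was -0.38. The falls of Tecr and Acot7 were lost without AThi replicate 1, and that of Mcat without AThi replicate 2. Me1, a malic enzyme gene listed for NADPH supply, did not pass, with overlapping groups (0.05 ± 0.06 (SE), limma adjusted p 0.493). Mecr, of mitochondrial fatty acid synthesis, changed by -0.74 ± 0.07 (SE). Acss1, the mitochondrial acetyl-CoA synthetase, changed by -0.70 ± 0.13 (SE), and Hsd17b12, the reductase that works with the elongases, by -0.52 ± 0.07 (SE) (limma adjusted p of 0.000323, 0.0044 and 0.0012). The list of SREBP processing and lipid transcription factors was mixed, with 3 of 16 tested rising, 5 falling and a median of -0.02 that was above 0 under each of the 3 other scalings. Mid1ip1, which activates acetyl-CoA carboxylase, was at 17.8 and 20.6 FPKM in AThi against 36.5, 35.8 and 30.8 FPKM in ATlo, a change of -0.82 ± 0.10 (SE) with a limma adjusted p of 0.000707. Insig1, a sterol-responsive anchor of SREBP and itself an SREBP target, changed by -0.55 ± 0.08 (SE), and Srebf2, which drives cholesterol genes, by -0.42 ± 0.08 (SE) (limma adjusted p of 0.0014 and 0.0047). Insig2 went up by 0.34 ± 0.06 (SE), as did the LXR-alpha gene Nr1h3 by 0.33 ± 0.10 (SE) and Rxra by 0.26 ± 0.06 (SE) (limma adjusted p of 0.0034, 0.0351 and 0.0107). The Nr1h3 call was lost with any of 4 libraries left out, all but ATlo replicate 3, and the Rxra call without AThi replicate 1.

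Of 8 tested uptake and binding genes, 3 rose and 3 fell, with a median of 0.22. Vldlr, a receptor for triglyceride-rich lipoproteins, was at 10.6 and 15.8 FPKM in AThi against 2.90, 4.23 and 3.48 FPKM in ATlo, a log2 fold change of 1.75 ± 0.19 (SE). The fatty acid transport proteins split: Slc27a1 rose by 1.03 ± 0.07 (SE) and Slc27a3 by 0.74 ± 0.15 (SE), whereas Slc27a6 was at 1.74 and 0.94 FPKM in AThi against 5.56, 5.02 and 7.15 FPKM in ATlo, a change of -1.82 ± 0.21 (SE). Limma adjusted p-values of these 4 genes were 0.000499, 9.63e-05, 0.0067 and 0.000622, and the Slc27a3 call was lost without AThi replicate 2. Dbi, the acyl-CoA binding protein, changed by -0.61 ± 0.09 (SE) from a level of 196 ± 14.8 FPKM (SD, n = 3) in ATlo, and the intestinal binding protein gene Fabp2 was at 1.54 and 1.29 FPKM in AThi against 3.96, 2.74 and 3.36 FPKM in ATlo (limma adjusted p of 0.0015 and 0.0018). Cd36, the scavenger receptor for fatty acids, was at no more than 0.23 FPKM in any library.

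Of 20 tested acyltransferase, lipid droplet and lipolysis genes, 8 rose and 4 fell, with a median of 0.19. These counts rest on the AThi libraries: 5 rose and 3 fell without AThi replicate 1, and 3 rose and 1 fell without AThi replicate 2. The coat protein gene Plin4 was at 13.5 and 12.1 FPKM in AThi against 4.77, 2.28 and 2.93 FPKM in ATlo, a log2 fold change of 1.85 ± 0.24 (SE) with a limma adjusted p of 0.001. Cidea, whose product promotes the fusion of droplets, was at 4.45 and 3.67 FPKM in AThi against 1.28, 0.76 and 0.46 FPKM in ATlo, a change of 1.81 ± 0.25 (SE) with a limma adjusted p of 0.0012. Cideb rose by 0.52 ± 0.13 (SE) (limma adjusted p 0.016), a call lost without either AThi library. Falls were found in the seipin gene Bscl2 (-0.42 ± 0.08 (SE)), Agpat5 (-0.35 ± 0.09 (SE)) and the lipase co-activator gene Abhd5 (-0.33 ± 0.09 (SE)), with limma adjusted p-values of 0.0047, 0.0149 and 0.0174. Those of Agpat5 and Abhd5 were lost without AThi replicate 2, and that of Abhd5 also without AThi replicate 1 or ATlo replicate 3. Plin1, the adipocyte coat protein gene, was at 0 in all 5 libraries.

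**Figure D4:**
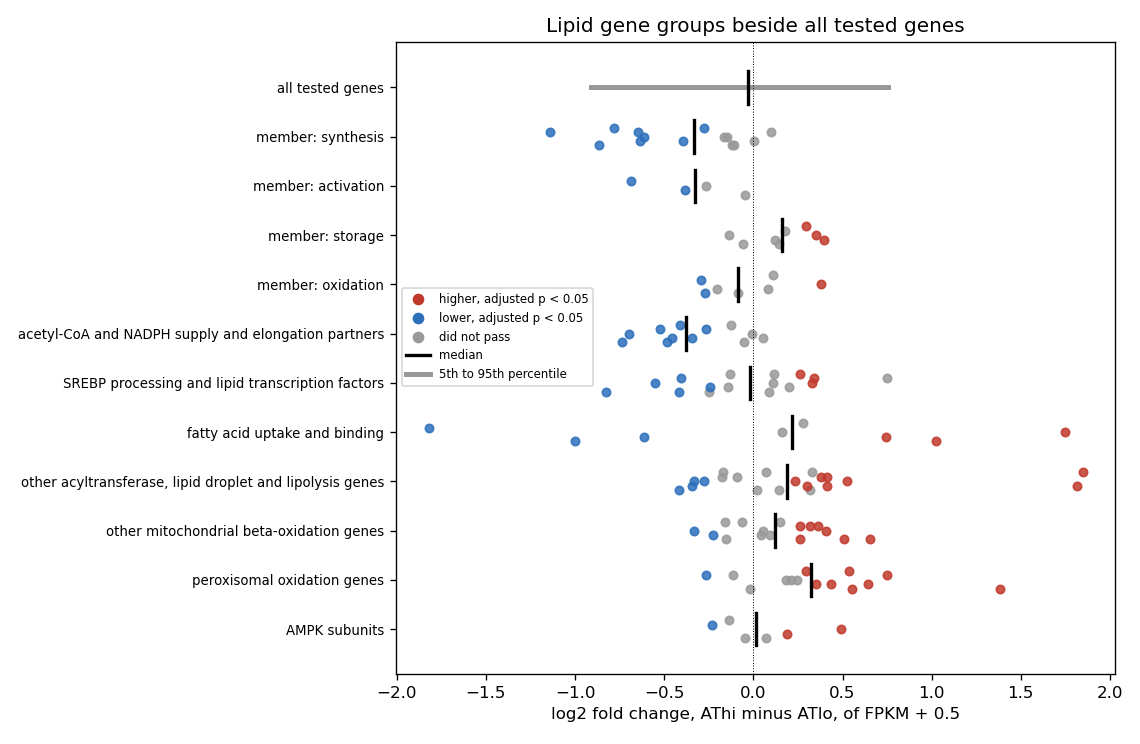
Log2 fold change (AThi minus ATlo, of FPKM + 0.5; horizontal axis) of each tested gene in the 4 roles and in 7 lists of related genes, with list medians as black bars and the 5th to the 95th percentile of all tested genes in grey at the top. Medians run from -0.38 for supply and elongation partners to 0.32 for peroxisomal oxidation, against -0.03 for all tested genes.

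Peroxisomes shorten very long and branched fatty acids, and 8 of 14 tested peroxisomal oxidation genes rose and 1 fell, with a median of 0.32. Acaa1b, a peroxisomal thiolase gene with a close paralogue in Acaa1a that makes its level uncertain, was at 21.5 and 16.0 FPKM in AThi against 8.62, 5.90 and 6.21 FPKM in ATlo, a log2 fold change of 1.38 ± 0.18 (SE). Pex11a, which divides peroxisomes, rose by 0.75 ± 0.11 (SE), and Scp2, the sterol carrier protein gene, by 0.65 ± 0.13 (SE) (limma adjusted p of 0.000983, 0.0018 and 0.0058). Hsd17b4 changed by -0.27 ± 0.09 (SE) with a limma adjusted p of 0.0378, a call lost in 8 of 14 alternative fits. The count of rises was 6 to 10 with a library left out.

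Of 16 tested genes on a list of other mitochondrial beta-oxidation and related genes, 7 rose and 2 fell, with a median of 0.12. The rises numbered 4 to 7 with a library left out, 4 of them without AThi replicate 1 (median 0.04), and 5 with the replicate number as a block, where Eci2 and Mlycd lost their calls. Cpt1c, the neuronal form of the carnitine enzyme, rose by 0.66 ± 0.12 (SE) at 1.32 to 2.74 FPKM. Acad11 rose by 0.51 ± 0.11 (SE) and Eci1, an isomerase for unsaturated chains, by 0.41 ± 0.07 (SE), and Acads and Echs1 changed by -0.33 ± 0.07 (SE) and -0.22 ± 0.06 (SE) (limma adjusted p of 0.0034, 0.0081, 0.0041, 0.0069 and 0.0153). The Acad11 call was lost without AThi replicate 1, and the Echs1 call without AThi replicate 2 or ATlo replicate 2. Subunits of AMPK, the kinase that inhibits acetyl-CoA carboxylase, had 2 of 6 tested genes higher and 1 lower, with a median of 0.01. That is near the 51.6% of all tested genes that passed. Prkab2 rose by 0.49 ± 0.10 (SE) and Prkab1 by 0.19 ± 0.06 (SE), and Prkag1 changed by -0.23 ± 0.07 (SE) (limma adjusted p of 0.0056, 0.0358 and 0.0335). The calls of Prkab1 and Prkag1 were each lost with 4 of the 5 libraries left out in turn, and that of Prkab1 also with the replicate block.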

How the data were processed

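The authors deposited 1 table of FPKM per gene and library, rounded to 2 decimals. The submitters' processing notes list the builds GRCm38 and mm10 and the tools STAR, featureCounts, DESeq2 and bcl2fastq. Versions, annotation, strand setting and the FPKM formula are not stated there. FPKM are shares of a library, so a change in total RNA per cell does not show.

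Depth was inferred from single-exon genes of up to 200 bases in GENCODE M21, where FPKM times length came in whole steps (100.0% of values within 0.1 of a step). Approximate reads, exon overlaps and shared 50-base stretches also use GENCODE M21, and promoters RefSeq (GRCm38.p6). The 11397 genes averaging 1 FPKM or more were compared in limma 3.58.1 under R 4.3.3 (lmFit and trended eBayes on log2(FPKM + 0.5), group as the single term, two-sided, 3 residual degrees of freedom), after the code was tested on simulated data. P-values were adjusted by Benjamini-Hochberg over all of them, with a threshold of 0.05. The scale understates changes of low genes. Sums were compared by exact permutation in SciPy 1.17.1.

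Genes and lists were chosen with earlier results of these data known. All 35 genes are named. By rule, library values are printed for those that passed with an absolute log2 fold change of at least 0.5 and for those at 20 FPKM or more that did not pass, and others by range; values of further genes that passed, and of Lpin1, were added after they were seen. Up to 3 genes per direction are named from each list by size, and Cd36, Plin1, Me1, Tecr, Mcat and Acot7 were added. Alternatives were other pseudocounts, filters, scalings and moderation, a replicate block, and leaving out each library.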

Additional observations from a re-analysis of the deposited data

How the results depend on the processing

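Of the 12 falls among the 35 genes, 9 kept their call in each of the 14 alternative fits that tested them (Acly, Acaca, Fasn, Scd1, Elovl1, Elovl6, Fads2, Acsl3 and Acsl5); a minimum mean of 5 FPKM leaves Acaca out. Of the 4 rises, 2 did (Plin3 and Acadm), and no call among the 16 changed sign. Of the 17 genes that did not pass, 12 passed in none. With ATlo replicate 1, 2 or 3 left out, 16, 13 and 15 of the 33 genes passed. Dgat2 and Pnpla2 lost their calls without ATlo replicate 2, and also without either AThi library. Without AThi replicate 1 the log2 fold changes of Srebf1 and Lpin1, which did not pass in the main fit, were 0.27 and 0.36. With a minimum mean of 5 FPKM, 1683 genes of 7685 were higher in AThi, against 2529 of 11397, since fewer genes are tested. No scaling moved the median log2 fold change of all genes by more than 0.1. The labels give both groups replicates 1 and 2, and with the replicate number as a block 4 of the 33 genes were higher and 12 lower, as without it, 16 in all. Deviations from the group means correlated at 0.20 and 0.30 between libraries of the same number. They correlated at -0.30 between AThi replicate 1 and ATlo replicate 2, and at -0.20 between AThi replicate 2 and ATlo replicate 1. With 2 AThi libraries the deviations of one mirror those of the other, so these values cannot decide whether the numbers pair the samples. The main fit took no pairing. The titles of same-numbered libraries also share the start of a code, which ATlo replicate 3 does not, and no label says what the code marks. Among the other lists, the block lost the calls of Lpin3, Eci2, Mlycd and Prkab1. The 2 AThi libraries limit the precision of every group difference.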

Other observations

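Hadha and Hadhb encode the 2 subunits of 1 enzyme complex and start 86 bases apart on opposite strands of chromosome 5, yet Hadhb was at 0.127 and 0.108 times the FPKM of Hadha in AThi and at 0.099 to 0.109 times in ATlo. Of the 50-base stretches of Hadhb, 19.7% occur in transcripts of other annotated genes, chiefly Gm13910, which was at 0.54 to 0.86 FPKM. The part of read sharing in this gap was not tested.

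Lipa, the lysosomal acid lipase that acts on fat delivered by lipophagy, was abundant at 129.97 and 104 FPKM in AThi against 111, 86.8 and 82.6 FPKM in ATlo. Its groups overlapped and it did not pass, with a log2 fold change of 0.33 ± 0.15 (SE) and a limma adjusted p of 0.103. Hilpda, which inhibits adipose triglyceride lipase and responds to hypoxia, was at 72.9 and 82.4 FPKM in AThi against 57.8, 66.4 and 51.2 FPKM in ATlo, a change of 0.41 ± 0.12 (SE) with a limma adjusted p of 0.0224, lost without AThi replicate 2 or ATlo replicate 1 and with no filter on low values. Both genes were chosen after their values were seen. G0s2, the other known inhibitor of that lipase, was at no more than 0.06 FPKM.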
